A study of Homo sapiens with 6 samples.

Results

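Complex I, the NADH dehydrogenase at the entry of the mitochondrial respiratory chain, was followed at the mRNA level in PC3 cells with and without silencing of Mic60. Members were every protein-coding gene whose symbol begins with NDUF, together with 6 assembly factors that carry other names (ECSIT, ACAD9, TMEM126B, TIMMDC1, NUBPL and FOXRED1). This gave 54 of the 57736 rows of the count table, namely 37 nuclear-encoded subunits, 14 assembly factors and 3 NDUF-named genes that are neither. Of the 54 members, 52 had enough counts for the test. The untested members were NDUFA4L2, with counts of 0, 0 and 0 in siMic60 libraries and 0, 0 and 1 in siCTRL libraries, and the readthrough gene NDUFC2-KCTD14, with a count of 0 in all 6 libraries. The mitochondrially encoded ND subunits were not analysed here, and none of the 7 was found by symbol among the rows.

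Complex I takes electrons from NADH, passes them along flavin and iron-sulfur clusters in its matrix arm to ubiquinone, and couples this to proton pumping through its membrane arm. Its core subunits carry the catalytic machinery, and the supernumerary subunits surround that core. Assembly factors build modules of the enzyme and are not part of the finished complex. Mic60, encoded by IMMT, is a central component of MICOS, the protein complex that holds the cristae junctions of the inner membrane, where the respiratory chain resides.

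PC3 is an established human prostate cancer cell line. The labels name 3 libraries siMic60.1 to siMic60.3 and 3 libraries siCTRL.1 to siCTRL.3, while their genotype entries read Mic60 KO and Mic60 WT for the same libraries. The siRNA names are used here. The sources used here give neither the siRNA sequence nor its dose or the time after transfection. Polyadenylated RNA was sequenced with QuantSeq, a kit that reads the 3′ end of each transcript, so a count stands for a transcript and was not divided by length. The labels number the replicates without saying whether they came from separate cultures, so p-values measure only the spread between these libraries, which may be technical. In bulk RNA, fewer cells that express a gene and less of its RNA per cell cannot be told apart.

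Levels are CPM, the counts scaled to library size after TMM normalization. The log2 fold change is siMic60 over siCTRL, with its standard error (SE). A gene is called changed at an adjusted p under 0.05 in edgeR's quasi-likelihood test with Benjamini-Hochberg adjustment over all 14653 genes tested. Libraries held 6644495 to 8779877 counts. IMMT stood at 5.83, 7.34 and 8.53 CPM in siMic60 libraries, against 88.9, 91.2 and 90.4 CPM in siCTRL libraries, so the targeted mRNA was low in every library labelled siMic60 (log2 fold change −3.62, SE 0.15, adjusted p = 4.29e-10). Silencing went with broad change, since 5204 genes (35.5%) were called, 2587 higher (17.7%) and 2617 lower (17.9%). Of the 5 epithelial markers, KRT19, EPCAM and KRT18 fell (log2 fold changes −0.94, −0.75 and −0.53), KRT8 rose (0.62), and CDH1 had a log2 fold change of −0.25 that was not called. Their summed level was 1081 to 1110 CPM in siMic60 libraries and 1501 to 2081 CPM in siCTRL libraries. The 7 leukocyte markers summed to 25.5 to 27.7 CPM in siMic60 libraries and 7.64 to 9.59 CPM in siCTRL libraries, mostly from CD68. Of the others, CD3E and NKG7 were at 0 counts in all 6 libraries, CD14 and LYZ held few counts, and the pan-leukocyte PTPRC had 1, 4 and 2 counts in siMic60 libraries, against 6, 9 and 8 counts in siCTRL libraries, the opposite direction to CD68. The 5 fibroblast markers summed to 47.2 to 68.4 CPM in siMic60 libraries and 278 to 372 CPM in siCTRL libraries, mostly from COL1A1. DCN was at 0 counts in all 6 libraries and PDGFRB held few counts, COL3A1 had a log2 fold change of 0.13 that was not called, and LUM had 3, 5 and 6 counts in siMic60 libraries, against 0, 2 and 4 counts in siCTRL libraries. These marker levels moved with the same groups as the complex I genes, and their part in the results was not tested.

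Complex I transcripts shifted by small amounts in both directions. Among the 37 subunits 9 fell (24.3%, beside 17.9% of all genes tested) and 4 rose (10.8%, beside 17.7%), while 24 did not pass the test. The subunits called in either direction were thus 13 of 37, a share near the 35.5% of all genes, which is no result about complex I. The log2 fold change was below 0 for 28 subunits and above 0 for 9, with a median of −0.14, whereas the median over all genes tested was 0.00 and 49.8% of them lay below 0. No subunit moved by 2-fold, beside 13.2% of all genes, and the median size of the log2 fold change was 0.20 among subunits and 0.37 among all genes. The median siCTRL level was 174 CPM among subunits and 20.4 CPM among all genes, and its part in these sizes was not tested. Small sizes were not particular to complex I. Among the 36 subunits of complexes III to V the median size was 0.19, and 1 moved by over 2-fold. The 3 siMic60 values lay wholly below the 3 siCTRL values for 14 subunits and wholly above them for 4, where 24.1% and 23.7% of all genes did so. Of the 24 subunits not called, 20 had a 95% interval that lay within a 1.5-fold change either way. The count of subunits that fell changed when single libraries were left out. It was 5 without siMic60 replicate 1, 5 without siMic60 replicate 3 and 5 without siCTRL replicate 1. Over all genes, 2617 fell with every library in the fit, and 2092, 2195 and 2141 fell in these smaller fits. Without siCTRL replicate 1 the median of the subunits was −0.06.

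**Figure D1:**
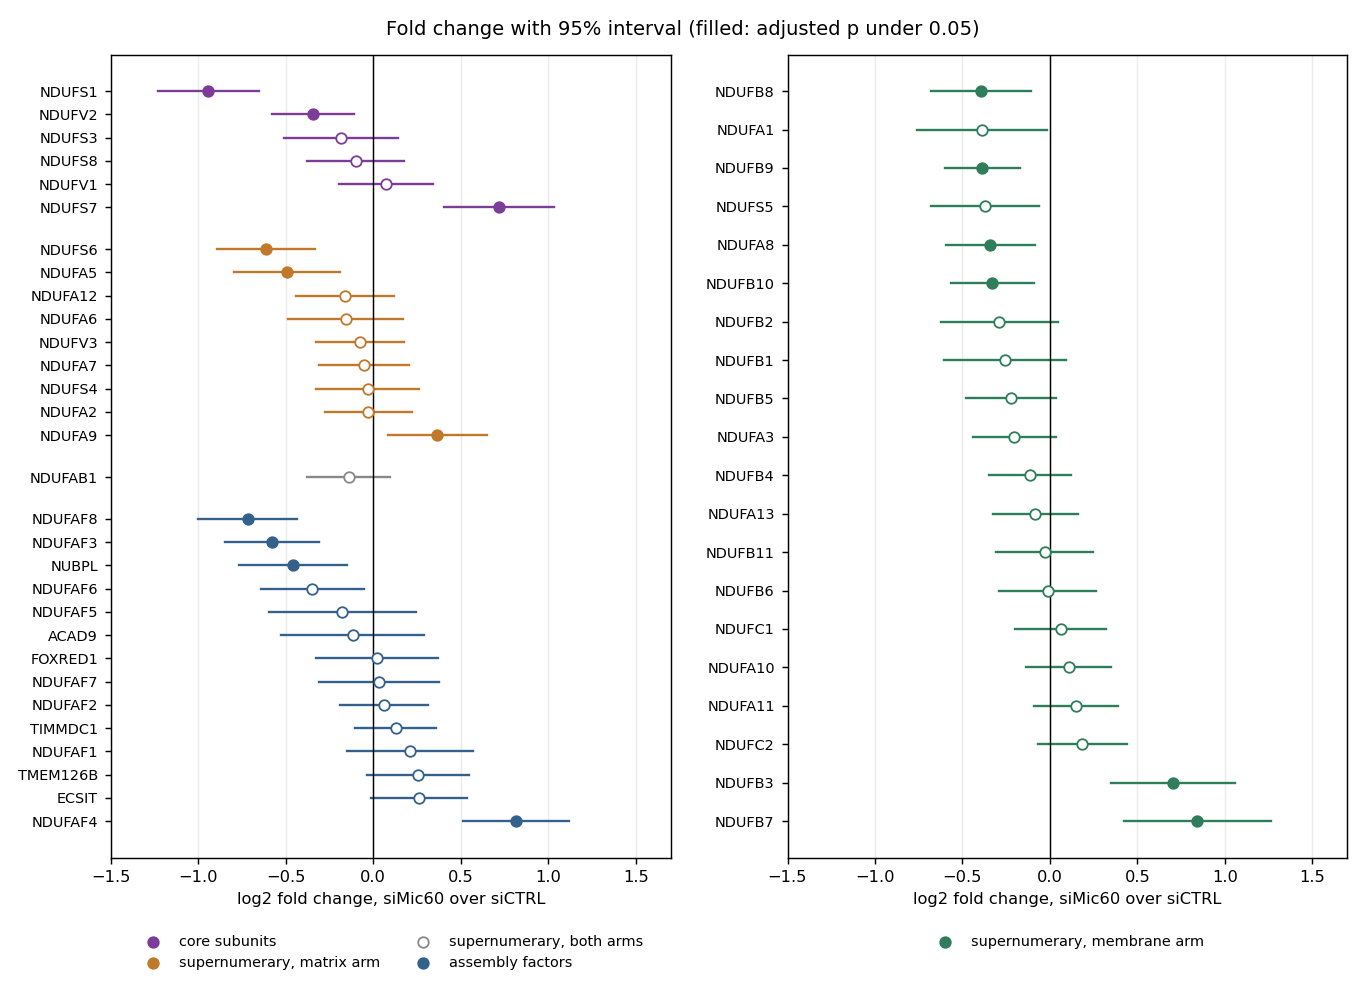
Log2 fold change (x axis, siMic60 over siCTRL) of 36 of the 37 subunits and the 14 assembly factors, by class, with 95% intervals from 3 libraries a group. Filled points passed an adjusted p of 0.05. Most points lie a little left of 0, and the called ones run from −0.94 for NDUFS1 to 0.84 for NDUFB7.

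Promoters of complex I genes are known for binding sites of NRF1, ETS-family factors (GABPA among them) and YY1. Windows that run 250 bases before to 50 bases after an annotated RefSeq start (GRCh38.p14) were matched by symbol for 44 of the 51 subunits and assembly factors. FOXRED1, NDUFAF6, NDUFB5, NDUFB9, NDUFC2 and NDUFS5 were among those with none. The letters GCGCNTGCG were searched for NRF1, CCGGAAG for ETS factors and AAGATGGCG for YY1, on both strands, and matches to the 3 motifs may overlap. The NRF1 letters were found for 11 of 32 subunits (34.4%), 2 of 12 assembly factors (16.7%) and 9.01% of all 27305 genes in the table. The YY1 letters were found for 6 subunits (18.8%), 1 assembly factor (8.33%) and 2.14% of all genes. The ETS letters were found for 5 subunits (15.6%), 3 assembly factors (25%) and 12.2% of all genes. Some genes have several windows, and a gene was counted once if any of its windows held a match. Among subunits with a window, the NRF1 letters were present in 3 of the 7 that fell and in 2 of the 4 that rose. A match describes these letters and does not show a bound site.

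The called subunits with NRF1 letters within 100 bases of the start are printed, because they include subunits that fell (NDUFS6 and NDUFA8) and subunits that rose (NDUFS7 and NDUFA9). Each runs from 100 bases before to 30 bases after the start, 5′ to 3′ along the gene, and capitals mark the matched letters. NDUFA8 has NRF1 matches that overlap across the start, and NDUFS7 and NDUFA9 also hold the YY1 letters just after it.
NDUFS6, chr5:1801307-1801436, plus strand: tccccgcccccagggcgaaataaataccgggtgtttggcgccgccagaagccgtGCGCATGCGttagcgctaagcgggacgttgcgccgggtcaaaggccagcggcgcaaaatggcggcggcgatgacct
NDUFA8, chr9:122159750-122159879, minus strand: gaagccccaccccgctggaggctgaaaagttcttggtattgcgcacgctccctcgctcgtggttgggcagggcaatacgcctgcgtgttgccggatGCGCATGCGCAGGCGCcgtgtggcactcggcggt
NDUFS7, chr19:1383807-1383936, plus strand: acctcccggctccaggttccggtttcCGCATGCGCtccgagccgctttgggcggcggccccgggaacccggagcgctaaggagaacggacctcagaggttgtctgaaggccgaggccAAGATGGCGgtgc
NDUFA9, chr12:4649014-4649143, plus strand: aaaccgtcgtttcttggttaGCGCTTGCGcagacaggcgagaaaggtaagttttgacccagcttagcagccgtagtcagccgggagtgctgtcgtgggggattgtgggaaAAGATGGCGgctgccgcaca

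Among the core subunits of the matrix arm, NDUFS1 and NDUFV2 fell and NDUFS7 rose. NDUFS1, the largest iron-sulfur subunit of the NADH-oxidising module, had 56.4, 43.6 and 48.1 CPM in siMic60 libraries, against 93.1, 84.8 and 106 CPM in siCTRL libraries. Every siMic60 value was below every siCTRL value, and NDUFS1 had the lowest log2 fold change of all members (−0.94, SE 0.14, adjusted p = 8.24e-05, or 0.52 times the siCTRL level). NDUFV2, an iron-sulfur subunit beside the NADH site, had 285, 298 and 311 CPM in siMic60 libraries, against 410, 366 and 358 CPM in siCTRL libraries. It was lower in all 3 siMic60 libraries (−0.34, SE 0.11, adjusted p = 0.0232).

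NDUFS7 moved the other way. This subunit carries the last iron-sulfur cluster before ubiquinone, and its mRNA stood at 41.9, 35.4 and 35.4 CPM in siMic60 libraries, against 20.4, 21.8 and 26.3 CPM in siCTRL libraries. It was the least abundant subunit mRNA in both groups and rose 1.64-fold, with no overlap (log2 fold change 0.72, SE 0.15, adjusted p = 0.00155). NDUFV1, NDUFS3 and NDUFS8 overlapped between the groups. NDUFV1, which binds NADH and the flavin, had 90.6, 92.6 and 80.1 CPM in siMic60 libraries, against 83.2, 73.5 and 93.4 CPM in siCTRL libraries (0.07, 95% interval −0.20 to 0.34). NDUFS3, a scaffold of the ubiquinone module, had 165, 192 and 143 CPM in siMic60 libraries, against 233, 180 and 155 CPM in siCTRL libraries (−0.18, interval −0.51 to 0.14). NDUFS8, a further iron-sulfur subunit, had 135, 142 and 122 CPM in siMic60 libraries, against 166, 137 and 124 CPM in siCTRL libraries (−0.10, interval −0.38 to 0.18). In both NDUFS3 and NDUFS8 the highest value was that of siCTRL replicate 1, and the rest of the values intermingled. The call of NDUFV2 was lost without siMic60 replicate 1, siMic60 replicate 2 or siCTRL replicate 1.

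**Figure D2:**
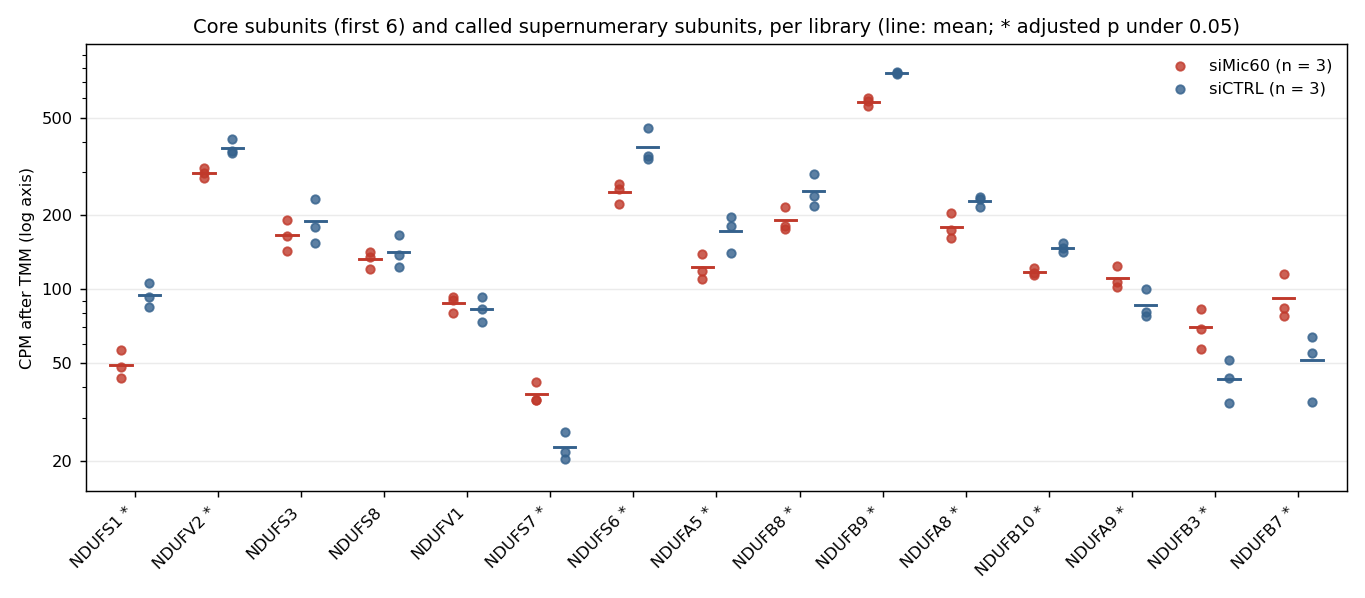
CPM after TMM (log axis) in each library of 6 core subunits and the 9 supernumerary subunits that passed the test, with siMic60 (red, n = 3) left of siCTRL (blue, n = 3), lines at the group means and stars at an adjusted p under 0.05. NDUFS1 and NDUFS6 sit lower and NDUFS7, NDUFB3 and NDUFB7 higher in all siMic60 libraries.

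The supernumerary subunits numbered 30, of which 6 fell (20%, beside 17.9% of all genes), 3 rose (10%, beside 17.7%) and 21 did not pass the test, so the share that fell was near the background. In the matrix arm 2 of 9 fell (22.2%, beside the same 17.9%) and 1 rose (11.1%, beside 17.7%). NDUFS6, a zinc-binding subunit of the NADH-oxidising module, had 256, 269 and 222 CPM in siMic60 libraries, against 452, 350 and 340 CPM in siCTRL libraries. All siMic60 values lay below the lowest siCTRL value (−0.61, SE 0.13, adjusted p = 0.00215). NDUFA5, a small subunit of the ubiquinone module, had 119, 140 and 110 CPM in siMic60 libraries, against 197, 181 and 141 CPM in siCTRL libraries. The nearest values of the groups, siMic60 replicate 2 and siCTRL replicate 3, were almost equal (−0.49, SE 0.14, adjusted p = 0.0133), and the call was lost without siMic60 replicate 3. NDUFA9, a nucleotide-binding subunit where the arms meet, had 125, 107 and 102 CPM in siMic60 libraries, against 81.1, 77.9 and 100 CPM in siCTRL libraries. It rose with groups that barely separated (0.36, SE 0.13, adjusted p = 0.0439), and was not called without siMic60 replicate 1, siMic60 replicate 2, siCTRL replicate 1 or siCTRL replicate 2, or with library totals or a replicate block in the fit. The remaining 6 matrix arm subunits (NDUFA2, NDUFA6, NDUFA7, NDUFA12, NDUFS4 and NDUFV3) had log2 fold changes of −0.16 to −0.03, and every one of their 95% intervals lay within a 1.5-fold change.

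In the membrane arm 4 of 20 supernumerary subunits fell (20%, beside 17.9% of all genes) and 2 rose (10%, beside 17.7%). NDUFB9 binds the mitochondrial acyl carrier protein and had the highest mean of any subunit mRNA in both groups, with 585, 560 and 601 CPM in siMic60 libraries, against 755 to 766 CPM in siCTRL libraries. The spread within each group was small beside the gap (−0.39, SE 0.10, adjusted p = 0.00747). NDUFB8, a subunit of the distal membrane arm, had 182, 217 and 176 CPM in siMic60 libraries, against 295, 241 and 219 CPM in siCTRL libraries. Here siMic60 replicate 2 nearly reached siCTRL replicate 3 (−0.39, SE 0.13, adjusted p = 0.0323). NDUFA8, which faces the intermembrane space, had 174, 162 and 204 CPM in siMic60 libraries, against 233, 216 and 237 CPM in siCTRL libraries (−0.34, SE 0.12, adjusted p = 0.0368). NDUFB10, of the distal arm, had 122, 114 and 117 CPM in siMic60 libraries, against 154, 141 and 148 CPM in siCTRL libraries (−0.33, SE 0.11, adjusted p = 0.0310). Both were lower in every siMic60 library. These calls were near the threshold, and were lost for NDUFB10 without any 1 of the 6 libraries, for NDUFA8 without any 1 but siMic60 replicate 3, and for NDUFB8 without siMic60 replicate 1, siMic60 replicate 3, siCTRL replicate 1 or siCTRL replicate 2.

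NDUFB7 and NDUFB3, also of the membrane arm, rose. NDUFB7, which like NDUFA8 is held by disulfide bonds on the intermembrane space side, had 115, 83.6 and 77.6 CPM in siMic60 libraries, against 34.8, 55.2 and 64.0 CPM in siCTRL libraries. It had the highest log2 fold change of all members, 0.84 (SE 0.20, adjusted p = 0.00387), and siMic60 replicate 1 and siCTRL replicate 1 stood farthest apart. NDUFB3, a small single-pass membrane subunit, had 57.0, 83.5 and 69.2 CPM in siMic60 libraries, against 34.3, 51.3 and 43.6 CPM in siCTRL libraries. Every siMic60 value was above every siCTRL value (0.70, SE 0.17, adjusted p = 0.00406). Among the 24 subunits not called, the groups did not overlap for 5. Over all genes, they did not overlap for 1956 of the 9449 not called, in either direction, so this share was near the background. The 5 subunits, picked out after their values were seen, were NDUFS5, NDUFAB1, NDUFA3, NDUFB4 and NDUFB5, all lower in siMic60 libraries. Of these, NDUFS5 had 366, 382 and 374 CPM in siMic60 libraries, against 619, 426 and 407 CPM in siCTRL libraries (−0.37, adjusted p = 0.0565), with siCTRL replicate 1 far above the rest. NDUFAB1, the acyl carrier protein found in both arms, had 196, 194 and 187 CPM in siMic60 libraries, against 231, 206 and 199 CPM in siCTRL libraries (−0.14, adjusted p = 0.354). NDUFA1, likewise picked afterwards, had 253, 376 and 262 CPM in siMic60 libraries, against 485, 376 and 304 CPM in siCTRL libraries. Its groups overlapped through siMic60 replicate 2 (−0.39, adjusted p = 0.0967). The 14 membrane arm subunits that were not called had log2 fold changes of −0.39 to 0.19.

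Among the 14 assembly factors, 3 fell (21.4%, beside 17.9% of all genes) and 1 rose (7.14%, beside 17.7%). The other 10 did not pass the test, and 8 of these had a 95% interval within a 1.5-fold change either way. The median log2 fold change was 0.03, with 6 factors below 0 and 8 above, and the groups did not overlap for 4 higher and 4 lower factors, where 23.7% and 24.1% of all genes did so, a share near the background. With library totals in place of TMM the median was −0.03, where the median of all genes was −0.05. NDUFAF8, the partner of NDUFAF5, had 295, 380 and 267 CPM in siMic60 libraries, against 562, 497 and 489 CPM in siCTRL libraries. It had the highest mean of any assembly factor mRNA in both groups, and each siMic60 value was well below the siCTRL values (−0.72, SE 0.13, adjusted p = 0.00074). NDUFAF5, a hydroxylase that modifies NDUFS7, had 12.7, 16.5 and 11.2 CPM in siMic60 libraries, against 12.6, 15.8 and 17.4 CPM in siCTRL libraries. Its groups overlapped (−0.18, 95% interval −0.60 to 0.25), and the interval reached just past a 1.5-fold fall.

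NDUFAF3 and NDUFAF4 work together on the ubiquinone module, and were called in opposite directions. NDUFAF3 had 98.1, 99.4 and 80.9 CPM in siMic60 libraries, against 151, 137 and 127 CPM in siCTRL libraries, with every siMic60 library below every siCTRL library (−0.58, SE 0.13, adjusted p = 0.00227). NDUFAF4 had 38.8, 37.4 and 46.1 CPM in siMic60 libraries, against 21.9, 25.6 and 21.9 CPM in siCTRL libraries, with every siMic60 library above every siCTRL library (0.82, SE 0.14, adjusted p = 0.000432, or 1.76-fold). NUBPL, which delivers iron-sulfur clusters to complex I, had 49.98, 59.4 and 40.4 CPM in siMic60 libraries, against 74.0, 63.8 and 68.0 CPM in siCTRL libraries. It was lower in all siMic60 libraries, although siMic60 replicate 2 came near siCTRL replicate 2 (−0.46, SE 0.14, adjusted p = 0.0218). The call of NUBPL was lost without siMic60 replicate 1, siMic60 replicate 3 or siCTRL replicate 1.

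NDUFAF6, an early assembly factor, had 25.5, 24.965 and 24.4 CPM in siMic60 libraries, against 28.4, 34.9 and 32.1 CPM in siCTRL libraries. The groups did not overlap, and the gene lay just outside the threshold (−0.35, SE 0.14, adjusted p = 0.0619). NDUFAF7, a methyltransferase, had 15.9, 19.7 and 16.4 CPM in siMic60 libraries, against 16.9, 17.4 and 16.6 CPM in siCTRL libraries (0.03, interval −0.31 to 0.38). NDUFAF2, which stands in for NDUFA12 late in assembly, had 61.2, 59.5 and 61.2 CPM in siMic60 libraries, against 53.3, 61.7 and 59.1 CPM in siCTRL libraries (0.06, interval −0.19 to 0.31). Neither separated the groups. FOXRED1, needed for the membrane arm, had 25.9, 19.5 and 19.1 CPM in siMic60 libraries, against 21.9, 19.3 and 22.1 CPM in siCTRL libraries, again with overlap (0.02, interval −0.33 to 0.37).

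NDUFAF1, ECSIT, ACAD9, TMEM126B and TIMMDC1 belong to or bind the inner membrane assembly complex known as MCIA, and none of the 5 passed the test with edgeR or DESeq2, or had an unadjusted p under 0.05 in edgeR. NDUFAF1 had 19.0, 21.5 and 18.1 CPM in siMic60 libraries, against 18.9, 17.6 and 14.1 CPM in siCTRL libraries (0.21, interval −0.15 to 0.57). ACAD9, which is also an acyl-CoA dehydrogenase, had 9.81, 14.6 and 14.1 CPM in siMic60 libraries, against 14.7, 12.8 and 14.4 CPM in siCTRL libraries (−0.12, interval −0.53 to 0.29). These groups overlapped, and siMic60 replicate 1 held the lowest ACAD9 value. ECSIT had 45.5, 46.4 and 43.1 CPM in siMic60 libraries, against 41.8, 33.9 and 36.98 CPM in siCTRL libraries (0.26, adjusted p = 0.133). TMEM126B had 38.9, 41.6 and 41.5 CPM in siMic60 libraries, against 29.4, 34.3 and 38.6 CPM in siCTRL libraries (0.26, adjusted p = 0.159). TIMMDC1 had 330, 297 and 286 CPM in siMic60 libraries, against 273, 285 and 276 CPM in siCTRL libraries (0.13, adjusted p = 0.382). For these last genes the siMic60 values were all above the siCTRL values, by gaps that were small beside the spread within the groups.

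**Figure D3:**
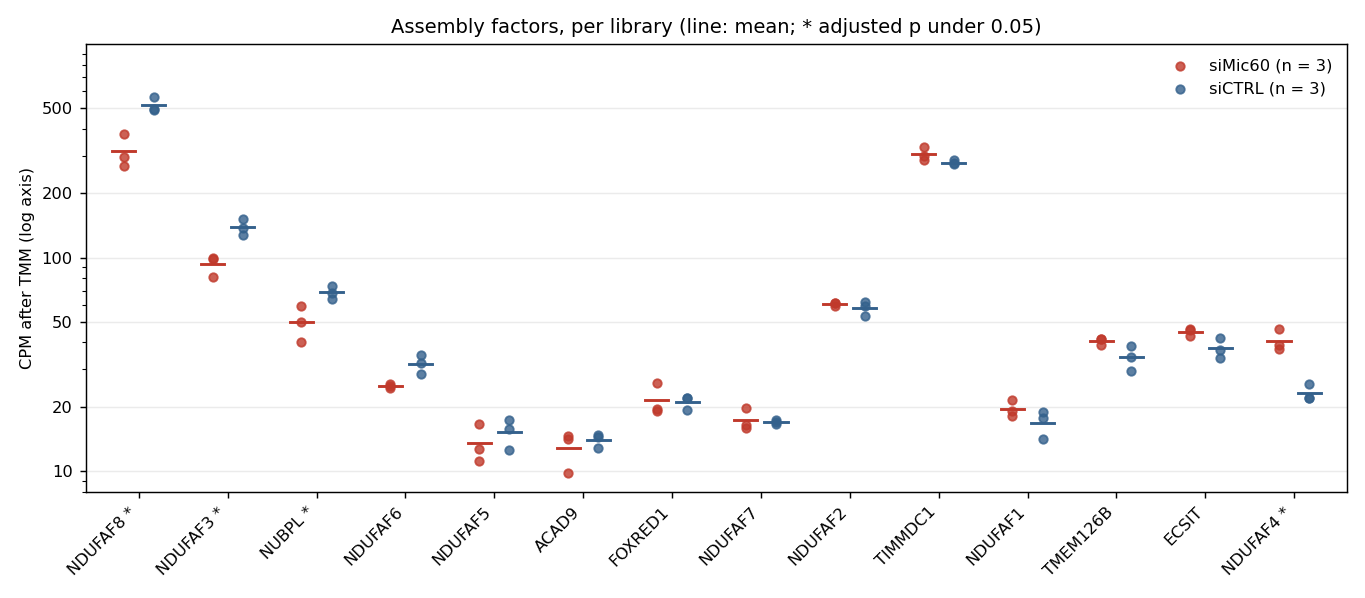
CPM after TMM (log axis) of the 14 assembly factors in each library, with siMic60 (red, n = 3) left of siCTRL (blue, n = 3), lines at the group means and stars at an adjusted p under 0.05. NDUFAF8, NDUFAF3 and NUBPL are lower and NDUFAF4 is higher in siMic60 libraries, and the rest differ little.

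Subunits and assembly factors were next set side by side. Summed over the 37 subunits, the level was 6489, 6994 and 6593 CPM in siMic60 libraries, against 8455, 7342 and 7219 CPM in siCTRL libraries. The means were 6692 ± 267 CPM and 7672 ± 681 CPM (SD, n = 3 each), a difference of −12.8%, or −8.09% without siCTRL replicate 1, which stood above the other siCTRL libraries. The groups did not overlap. NDUFB9, NDUFS6, NDUFS5 and NDUFA1, taken as the subunits with the largest fall in mean CPM, gave −179, −132, −110 and −91.6 CPM of the total difference of −980 CPM. Summed over the 14 assembly factors, the level was 1066, 1137 and 969 CPM in siMic60 libraries, against 1320, 1256 and 1234 CPM in siCTRL libraries. The means were 1058 ± 84.2 CPM and 1270 ± 44.9 CPM (SD, n = 3 each), a difference of −16.7%. Nearly all of it was NDUFAF8, which gave −202 of −213 CPM, and without NDUFAF8 the factors summed to 744 CPM in siMic60 libraries and 754 CPM in siCTRL libraries.

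A mean of log2 CPM gives each gene the same weight. For subunits it was 7.19, 7.29 and 7.20 in siMic60 libraries, against 7.42, 7.30 and 7.29 in siCTRL libraries, a difference of means of −0.11. This mean overlapped between the groups, since siMic60 replicate 2 (7.2931) stood just above siCTRL replicate 3 (7.2885). For assembly factors it was 5.40, 5.50 and 5.34 in siMic60 libraries, against 5.46 in each siCTRL library, with overlap and a difference of −0.05. The gap between subunits and assembly factors was thus 1.79, 1.79 and 1.86 in siMic60 libraries, against 1.96, 1.83 and 1.83 in siCTRL libraries. Its means were 1.81 ± 0.04 and 1.88 ± 0.08 (SD, n = 3 each), a difference of −0.06. The size of this difference lay between the SD of the siMic60 libraries and that of the siCTRL libraries, and the values of the groups overlapped. Without siCTRL replicate 1 the difference was −0.02, and without any other single library it was −0.050 to −0.087. No shift of one class against the other was therefore resolved with these libraries.

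**Figure D4:**
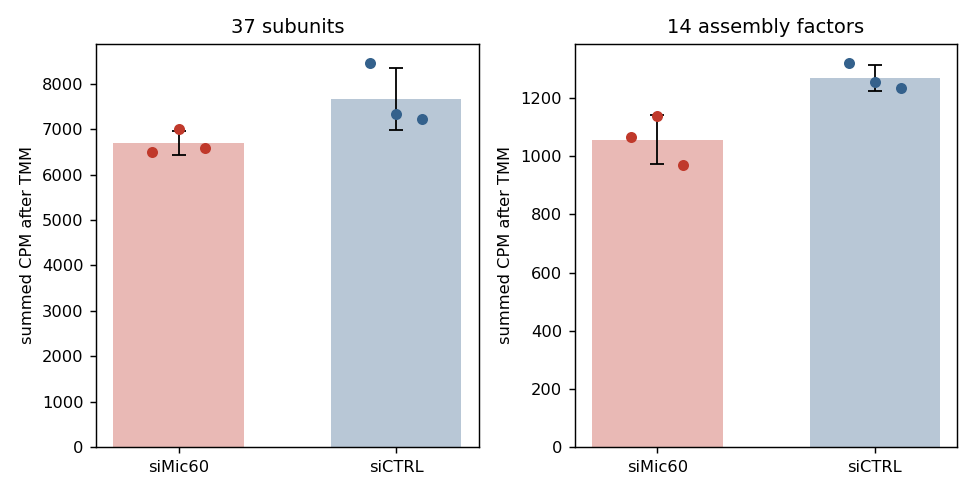
Summed CPM after TMM of the 37 subunits (left) and the 14 assembly factors (right). Bars are means, error bars are SD and points are the 3 libraries of siMic60 (red) and of siCTRL (blue). The subunit means are 6692 and 7672 CPM, and the assembly factor means are 1058 and 1270 CPM.

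The only tested member that is neither a subunit nor an assembly factor was NDUFA4, which is now assigned to complex IV. It had 700, 850 and 982 CPM in siMic60 libraries, against 866, 853 and 896 CPM in siCTRL libraries. The siMic60 values spread to both sides of the siCTRL values (−0.05, interval −0.31 to 0.22).

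The subunits of complexes III to V offered a comparison within the same respiratory system. Of these 36 nuclear-encoded subunits, a list that leaves out NDUFA4, 4 fell (11.1%, beside 17.9% of all genes) and 2 rose (5.56%, beside 17.7%). A log2 fold change below 0 was found for 31 (86.1%, beside 49.8% of all genes). The median was −0.16, beside −0.14 for complex I subunits. In complex III, UQCRC2, a core protein, fell (−0.47, adjusted p = 0.0133). In complex IV, COX5B fell (−0.33, adjusted p = 0.0428), a call that was lost with a replicate block and in 5 of the 6 fits that left out a library. In complex V, the ATP synthase, ATP5PB fell (−0.35, adjusted p = 0.0299). ATP5ME, added after its value was seen to complete the count, also fell (−0.52, adjusted p = 0.0375). It had 201, 282 and 206 CPM in siMic60 libraries, against 437, 299 and 252 CPM in siCTRL libraries, so its groups overlapped. The call of ATP5ME was not followed in the other fits. The calls of UQCRC2 and ATP5PB were lost without siMic60 replicate 1 or siMic60 replicate 3, and that of ATP5PB also without siCTRL replicate 2. ATP5MC1 and ATP5MC2, which encode the same c-ring protein, rose. ATP5MC3, a further c-ring gene added after its value was seen, did not rise and was not called (−0.19, adjusted p = 0.223). ATP5MC1 had 381, 368 and 331 CPM in siMic60 libraries, against 172, 173 and 186 CPM in siCTRL libraries. The groups were far apart, and this 2.03-fold rise (log2 fold change 1.02, SE 0.11, adjusted p = 6.18e-06) exceeded the fold change of every complex I member. The difference between complex I and the other complexes was not tested.

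**Figure D5:**
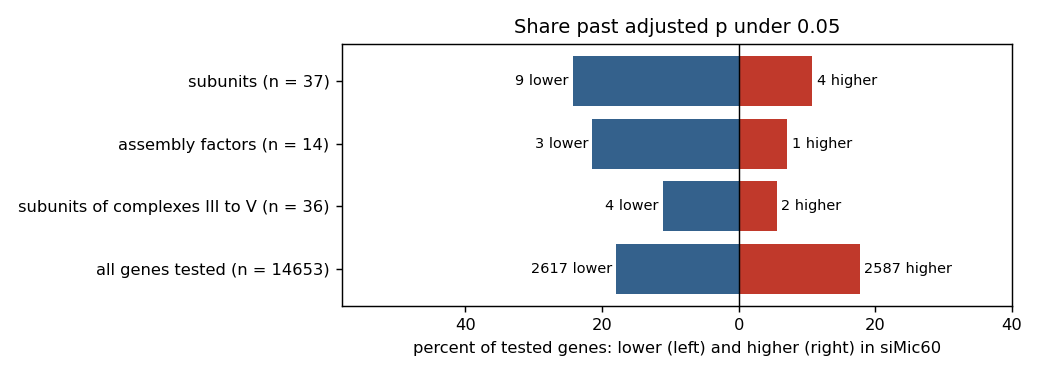
Percent of tested genes that fell (left of 0) or rose (right of 0) in siMic60 against siCTRL at an adjusted p under 0.05, by class, with the number of genes at each bar. Among complex I subunits 24.3% fell and 10.8% rose, and among assembly factors 21.4% and 7.14%. Among subunits of complexes III to V 11.1% fell and 5.56% rose, and among all genes tested 17.9% and 17.7%.

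Of 10 further genes linked to complex I assembly but outside the naming rule, 2 rose (20%, beside 17.7% of all genes), 1 fell (10%, beside 17.9%) and 7 were not called, with a median log2 fold change of −0.09. Both shares rest on few genes and are no result about the group. TMEM126A, a relative of TMEM126B that acts on the membrane arm, had 23.3, 28.8 and 23.4 CPM in siMic60 libraries, against 11.6, 15.6 and 18.5 CPM in siCTRL libraries, without overlap (0.72, SE 0.18, adjusted p = 0.00647). TMEM70, an inner membrane protein best known for ATP synthase assembly, had 101.5, 140.0 and 98.9 CPM in siMic60 libraries, against 68.7, 83.3 and 78.4 CPM in siCTRL libraries. It too was higher in every siMic60 library (0.56, SE 0.15, adjusted p = 0.00742). COA1, an inner membrane assembly protein, had 36.5, 44.5 and 39.4 CPM in siMic60 libraries, against 51.3, 51.7 and 53.0 CPM in siCTRL libraries, and fell (−0.37, SE 0.13, adjusted p = 0.0318). That call was lost without siMic60 replicate 1, siMic60 replicate 3, siCTRL replicate 2 or siCTRL replicate 3, or with no minimum count.

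How far reads of neighbouring or copied genes entered these counts is limited by the sources. In GENCODE release 29, 25 of the 51 subunits and assembly factors overlap another protein-coding gene, 10 of them on the same strand, and no source used here gives the strand setting of the counting. The members are therefore reported as counted. The table has 62 rows for NDUF pseudogenes, near copies of these genes, and 6 of them hold a count, 14 counts in all. How the counting divided reads between a gene and its copies is not known from these rows.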

How the data were processed

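RNA from PC3 cells was sequenced from QuantSeq 3′ mRNA libraries, 3 siMic60 and 3 siCTRL. The authors deposited counts per Ensembl gene in 1 table, as whole numbers without normalization. RSEM 1.2.3, DESeq2 and hg19 (GRCh37) stand in the submitters' processing notes with no role, so the counts may be rounded estimates. For the aligner, annotation, strand setting and filters, the entry is: not given in the sources used here. Symbols were matched for 39874 of 57736 rows, 39501 through current names and 373 through GENCODE release 29. That annotation uses another build than the files, so no gene coordinates are given, and promoter windows carry RefSeq's own build.

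Genes that reached 10 counts in 3 or more of the 6 libraries entered edgeR 4.0.16 (R 4.3.3) with TMM scaling and its quasi-likelihood test, and p-values were adjusted by Benjamini-Hochberg, with calls made under 0.05. Intervals are 95% intervals from the SE, and levels in log2 CPM use a prior count of 2. The script was tested on simulated data. Totals of 6644495 to 8779877 counts per library left the tested member with the lowest means, ACAD9, at 64 to 123 counts per library. Alternatives were DESeq2 1.42.0, RLE size factors, library totals, no minimum, a minimum of 50, a prior count of 5, the replicate number as a block, and the omission of each library in turn. Named genes were the assembly factors and core subunits, the 5 highest and 5 lowest called supernumerary subunits, the other NDUF-named genes, IMMT, and at most 3 called genes of each comparison list by adjusted p. Some items are not reported here. Members and lists were chosen with earlier results of these data known.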

Additional observations from a re-analysis of the deposited data

How the results depend on the processing

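Of the 17 called members, NDUFS1, NDUFS6, NDUFB9, NDUFAF3 and NDUFAF8 (lower) and NDUFS7, NDUFB3, NDUFB7 and NDUFAF4 (higher), 9 in all, passed under every alternative, and no called member changed sign. With DESeq2, 4960 genes were called, with 4 subunits higher and 10 lower. With each library left out, 4148 to 4633 genes were called, 3 to 4 subunits higher and 5 to 9 lower (5 without siMic60 replicate 1, siMic60 replicate 3 or siCTRL replicate 1), and the subunit median ran from −0.193 to −0.057, the last without siCTRL replicate 1. These fits have fewer libraries. Signs were followed for the named members only, which leave out the 21 uncalled supernumerary subunits. Among uncalled named members, signs turned without siMic60 replicate 1 for ACAD9 (range −0.204 to 0.044), FOXRED1 (−0.119 to 0.101) and NDUFA4 (−0.167 to 0.082). They turned for NDUFAF7 (−0.058 to 0.096) without siMic60 replicate 2 and for NDUFS8 (−0.200 to 0.022) without siCTRL replicate 1. Without siCTRL replicate 2 they turned for FOXRED1 (−0.046) and NDUFV1 (−0.016 to 0.155). With library totals they turned for FOXRED1 (−0.034) and NDUFAF7 (−0.025). The cause was not tested. NDUFAF6 was called lower with library totals, a minimum of 50 counts, or without siCTRL replicate 1. Over all genes, replicates that share a number did not deviate together (correlations −0.10, −0.03 and 0.03). The labels state no pairing, and with so few libraries these values cannot decide whether the numbers pair them. A fit with the replicate block called 4766 genes, 3 subunits higher and 8 lower, and lost NDUFA9, NDUFB10 and COX5B. Depth limits ACAD9, NDUFAF5 and NDUFAF7 most, with 64 to 161 counts per library.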

Other observations

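Regulators of mitochondrial biogenesis were followed as a further group. Of 7 tested, TFAM and PPRC1 rose (28.6%, beside 17.7% of all genes) and 5 were not called. The median log2 fold change was 0.18, beside 0.00 for all genes. The share and the median rest on few genes and are no result about the group. TFAM, which packages and transcribes mitochondrial DNA, had 120, 153 and 135 CPM in siMic60 libraries, against 75.9, 99.8 and 100 CPM in siCTRL libraries. Every siMic60 value was above every siCTRL value (0.57, SE 0.14, adjusted p = 0.00534 in edgeR's test). PPRC1, a coactivator related to PGC-1, had 16.1, 16.4 and 15.8 CPM in siMic60 libraries, against 7.31, 9.63 and 10.2 CPM in siCTRL libraries, also without overlap (0.83, SE 0.19, adjusted p = 0.00311). NRF1 itself had a log2 fold change of −0.32 and GABPA one of 0.28, and neither was called. PPARGC1A was not tested, with counts of 0, 0 and 0 in siMic60 libraries and 0, 1 and 0 in siCTRL libraries.

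Some transcripts that run beside or against complex I genes had rows of their own. NDUFA6-DT had 10, 26 and 19 counts in siMic60 libraries, against 46, 34 and 35 counts in siCTRL libraries, and was called lower (−1.01, SE 0.34, adjusted p = 0.0304). NDUFA6 itself was not called, at −0.16. NDUFV2-AS1 had 12, 9 and 10 counts in siMic60 libraries, against 27, 20 and 16 counts in siCTRL libraries, and did not pass the test (−0.93, adjusted p = 0.0901). NDUFV1-DT, with the most counts of these, had 108, 126 and 124 counts in siMic60 libraries, against 160, 119 and 109 counts in siCTRL libraries (−0.04, adjusted p = 0.884). NDUFB2-AS1 had 13, 16 and 25 counts in siMic60 libraries, against 19, 30 and 23 counts in siCTRL libraries (−0.36, adjusted p = 0.473). Both overlapped between the groups. Without the strand setting, reads that fall where such a transcript and its neighbour overlap cannot be told apart.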
